A study of Mus musculus with 4 samples.

Results

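The regions described here are the accessible chromatin regions that overlap a transfer RNA gene, or the 2 kb on either side of one, on chromosomes 1 to 19 of mouse naive CD4 T cells. They number 147 of the 64525 regions in the whole series, and make up 0.232% (95% exact binomial interval 0.196 to 0.273%) of the 63301 on these chromosomes. Naive CD4 T cells, resting helper cells that have not met antigen, came from spleen and pLN, as the labels write it, of 2 genotypes with 2 libraries each: WT and DDX55 KO. They were profiled by ATAC-seq, which uses a transposase to cut and tag DNA in open chromatin. Ddx55 encodes a DEAD-box RNA helicase. The sources used here give no strain, age or knockout design and do not say whether replicates were separate animals. The deposited list of regions joins all 4 libraries and carries positions on build mm10 with no value per library. No spread between replicates, depth or genotype difference could therefore be given, and each value below describes the 4 libraries together. Intervals are 95% exact (Clopper-Pearson) binomial intervals that cover counting error over genes or regions, and neighbouring genes and regions are not independent.

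Transfer RNAs carry amino acids to the ribosome and read codons with their anticodon. Their genes are short, occur in many near-identical copies and often lie in clusters, and RNA polymerase III transcribes them from promoters inside the gene, the A box and the B box. The factor TFIIIC binds these boxes and places TFIIIB just upstream, which in turn recruits the polymerase. The RefSeq gene table (GRCm38.p6, the assembly that mm10 names) lists 391 transfer RNA genes on chromosomes 1 to 19, with a median length of 73 bp (70 to 107 bp), on all but 1 of these chromosomes. Symbols give the amino acid and anticodon of all 391: n-TRtct1 is an arginine gene with anticodon TCT. The cell type label was checked at defining genes: the naive CD4 T cell markers Cd3d, Cd3e, Cd3g, Cd4, Lck, Zap70, Tcf7, Lef1 and Ccr7 each had a region within 1 kb of a gene end, where 52.6% of all protein-coding genes did. Of the markers of other cells, 0 of 4 B cell genes and 0 of 3 myeloid genes had one, and of the CD8 T cell pair Cd8b1 did and Cd8a did not. Away from their ends, the B cell gene Pax5 held 5 regions inside the gene, and the myeloid gene Adgre1 and Cd8a held 1 each.

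The sequence of the transfer RNA genes was not used here, but the RefSeq promoter table (GRCm38.p6; 250 bases before to 50 after a transcript's start) holds windows of neighbouring genes that overlap 10 of them. The 6 windows below are shown because they hold the most of a transfer RNA gene, 62 bases or more. The other 4 hold 17 to 47 bases of n-TNgtt6, n-TNgtt7, n-TRacg6 and n-TLcaa3, each overlapped by a region, and are not printed. Capitals mark the bases that belong to the transfer RNA gene, and each is printed 5' to 3' on the strand of the neighbouring gene. The first 4 carried an accessible region and the last 2 did not.
n-TRtcg5 in the Polg window, chr7:79466224-79466523, minus strand: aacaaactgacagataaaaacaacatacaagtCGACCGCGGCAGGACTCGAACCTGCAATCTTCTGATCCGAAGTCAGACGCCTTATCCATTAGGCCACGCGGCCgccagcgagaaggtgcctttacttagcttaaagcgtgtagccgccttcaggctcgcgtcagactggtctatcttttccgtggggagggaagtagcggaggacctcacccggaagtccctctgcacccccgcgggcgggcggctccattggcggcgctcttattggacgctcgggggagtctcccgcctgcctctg
n-TLaag4 in the Polr3e window, chr7:120917528-120917827, plus strand: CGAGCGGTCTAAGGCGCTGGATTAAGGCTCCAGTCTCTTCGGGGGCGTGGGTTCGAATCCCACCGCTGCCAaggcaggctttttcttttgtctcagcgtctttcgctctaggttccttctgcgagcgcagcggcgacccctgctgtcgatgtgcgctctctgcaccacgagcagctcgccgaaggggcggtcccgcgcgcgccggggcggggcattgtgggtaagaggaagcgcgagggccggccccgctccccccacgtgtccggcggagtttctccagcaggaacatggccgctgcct
n-TTagt9 in the Gm38989 window, chr7:35234765-35235064, minus strand: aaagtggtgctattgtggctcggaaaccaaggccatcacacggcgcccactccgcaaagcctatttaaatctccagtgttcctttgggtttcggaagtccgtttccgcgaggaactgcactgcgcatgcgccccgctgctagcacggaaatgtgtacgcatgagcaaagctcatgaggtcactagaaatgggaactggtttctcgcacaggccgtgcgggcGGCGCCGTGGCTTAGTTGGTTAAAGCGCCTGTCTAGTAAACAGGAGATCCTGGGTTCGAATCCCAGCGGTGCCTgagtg
n-TVcac9 in the Gm46404 window, chr13:23445922-23446221, minus strand: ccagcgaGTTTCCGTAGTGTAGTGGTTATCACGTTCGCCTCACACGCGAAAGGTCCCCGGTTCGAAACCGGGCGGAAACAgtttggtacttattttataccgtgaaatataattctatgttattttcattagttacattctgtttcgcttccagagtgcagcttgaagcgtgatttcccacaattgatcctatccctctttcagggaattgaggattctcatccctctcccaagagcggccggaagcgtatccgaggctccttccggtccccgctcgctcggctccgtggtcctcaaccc
n-TAagc16 in the Gm32420 window, chr13:21222490-21222789, minus strand: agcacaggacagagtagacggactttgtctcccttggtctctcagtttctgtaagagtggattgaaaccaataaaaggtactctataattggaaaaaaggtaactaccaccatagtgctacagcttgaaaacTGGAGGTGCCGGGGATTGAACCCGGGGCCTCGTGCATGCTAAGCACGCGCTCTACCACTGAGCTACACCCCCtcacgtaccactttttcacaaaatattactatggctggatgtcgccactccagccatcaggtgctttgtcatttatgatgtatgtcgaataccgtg
n-THgtg7 in the BC107364 window, chr3:96452257-96452556, minus strand: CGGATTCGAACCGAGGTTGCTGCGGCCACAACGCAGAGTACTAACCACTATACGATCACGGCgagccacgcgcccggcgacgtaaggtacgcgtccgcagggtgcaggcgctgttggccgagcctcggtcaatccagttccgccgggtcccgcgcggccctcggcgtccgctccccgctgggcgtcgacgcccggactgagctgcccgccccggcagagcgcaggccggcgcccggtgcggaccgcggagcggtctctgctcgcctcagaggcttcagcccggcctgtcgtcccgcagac

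The first window belongs to a transcript start inside Polg, which encodes the mitochondrial DNA polymerase, and holds all 73 bases of n-TRtcg5 (arginine). A region of 1053 bp, chr7:79465622-79466674, covered window and gene. In the second, 71 of the 82 bases of n-TLaag4 (leucine) lie in the window of Polr3e, a subunit gene of RNA polymerase III itself, and the gene ends 180 bp from the Polr3e start. A region of 1318 bp, chr7:120917505-120918822, covered both. The threonine gene n-TTagt9 spanned the start of the long noncoding RNA gene Gm38989, its nearer edge 29 bp from that start, under a region of 1074 bp. The valine gene n-TVcac9 lay 171 bp from the start of Gm46404, another noncoding gene, under a region of 1269 bp that also covered the arginine gene n-TRacg5. The alanine gene n-TAagc16 near Gm32420 and the histidine gene n-THgtg7 near BC107364 had no region on their windows, and their GC contents were 47.3% and 72.3%. The 4 printed windows with a region held 50.7 to 66.7% GC.

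The windows were searched on both strands for the B box written as GGTTCGA, 2 bases of any kind, then CC. It was found inside the transfer RNA gene in 6 of the 10 windows: 5 of the 6 printed, all but n-TAagc16, and 1 of the other 4, that of n-TNgtt7. It read GGTTCGAGTCC in n-TRtcg5 and GGTTCGAATCC in n-THgtg7, both on the strand opposite to the neighbouring gene. In n-TLaag4 and n-TTagt9 it read GGTTCGAATCC and in n-TVcac9 GGTTCGAAACC, all on the same strand as the neighbouring gene. Of all 32851 promoter windows in the table, 40 (0.122%) held this motif, and 6 of those 40 overlapped a transfer RNA gene. An A box written as TGGC, 2 of any, AG, 2 of any, then GG matched in n-TTagt9 (TGGCTTAGTTGG) and was present in 2.46% of all windows. Written as TAGC, 2 of any, then AGTGG, it matched in n-TAagc16 (TAGCTCAGTGG) and in 0.265% of all windows. The form TGGC, 2 of any, then AGTGG was not matched in these windows and occurred in 0.633% of all; a site can match both forms that begin with TGGC. The sequence TATAAA, present in 13.6% of all windows, was found outside the transfer RNA gene in the n-TVcac9 and n-TNgtt7 windows. A match describes the letters in the window and no match says nothing of a factor.

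Of the 391 transfer RNA genes, 131 (33.5%, 28.8 to 38.4%) were overlapped by a region by at least 1 bp. Of the 3414 genes of the 4 other short RNA kinds in the table (small nucleolar, small nuclear, micro and ribosomal RNA; median length 107 bp), 4.98% were. By kind, the shares were 3.27% of 1286 small nucleolar, 4.62% of 931 small nuclear, 7.39% of 1136 micro and 1.64% of 61 ribosomal RNA genes. Of all other genes of any kind, 41.6% were overlapped, and of protein-coding genes 67.5%; these are far longer, with medians of 6408 and 17491 bp, and length was not matched. Within 2 kb, 209 transfer RNA genes (53.5%, 48.4 to 58.5%) had a region, against 19.4% of the 4 short RNA kinds, 48.2% of all other genes and 71.3% of protein-coding genes. The remaining 182 transfer RNA genes had no region within 2 kb. These 182 include 5 genes (Trnat-ugu, Trnap-ugg, Trnav-aac, Trnal-aag and Trnav-cac) that the table places on chromosome 11 below 3 Mb, where chromosomes 1 to 19 hold 0 regions. Of these 5, 4 form a group that spans 3437 bp. A cluster at 48853619 to 48857055 on the same chromosome has the same 4 anticodons, order and span, and 3 overlapped genes. Whether the 4 are second entries of those genes was not tested. Without the 5 genes placed below 3 Mb, the overlapped share was 33.9% of 386. The other 177 lay a median of 11.4 kb from the nearest region (2.12 to 62.7 kb).

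Coverage by regions was highest at the transfer RNA genes and close to its level at 5 kb by 2 kb. The middle of the gene was covered by a region for 28.6% of transfer RNA genes. Positions 500 bp away were covered for 20.3%, 1 kb away for 8.70%, 2 kb away for 3.45% and 5 kb away for 3.20%. At ends of protein-coding genes, 3' ends included since the table has no strand, the corresponding values were 21.1% at the end, 9.95% at 500 bp and 3.41% at 1 kb. Micro RNA genes went from 6.69% at the middle to 2.29% at 5 kb, small nuclear RNA genes from 3.87% to 1.72%, and small nucleolar RNA genes from 2.64% to 2.02%. Over the 206 transfer RNA genes with no protein-coding gene end within 10 kb, coverage was 16.0% at the middle and 1.46% at 5 kb. Regions covered 1.09% of the sequence counted from each chromosome's first region to its last.

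**Figure D1:**
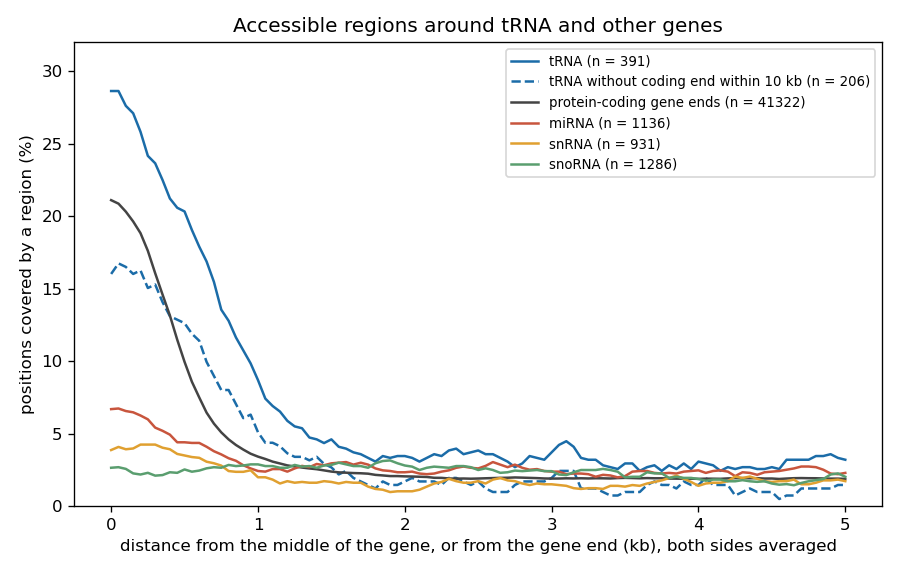
Share of positions covered by an accessible region (vertical axis, percent) against distance from the middle of the gene, or from the gene end for protein-coding genes (horizontal axis, kb, both sides averaged), for all transfer RNA genes, those far from coding ends, and 4 comparison classes. Coverage at transfer RNA genes starts at 28.6% and is at 3.45% by 2 kb.

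The share overlapped was highest close to protein-coding genes. Of 47 transfer RNA genes within 1 kb of a coding gene end, 30 (63.8%, 48.5 to 77.3%) were overlapped. Of 138 at 1 to 10 kb, 58 (42.0%, 33.7 to 50.7%) were. Of 206 farther than 10 kb, 43 (20.9%, 15.5 to 27.1%) were. With the cysteine genes left out, the farthest class stood at 27.7% of 155. The share was also low where few other regions lay within 50 kb (regions at transfer RNA genes not counted): 10.2% of 59 genes with 0 such regions, 27.2% of 151 with 1 to 3, 45.7% of 129 with 4 to 7 and 48.1% of 52 with 8 or more. The class with 0 such regions holds many cysteine genes of chromosome 6, among them a cluster of 22, and the 5 genes placed below 3 Mb. None of these was overlapped, and the share of the class without them was not computed. Of the 33 transfer RNA genes inside a protein-coding gene 33.3% were overlapped, and of the 358 outside 33.5% (28.6 to 38.7%). Outside and without the cysteine genes, the share was 39.2% of 301 (33.7 to 45.0%). These classes share clusters and were not tested against one another.

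Of the 147 regions, 97 overlapped a transfer RNA gene and 50 lay in the flanks alone. The flank regions had a median gap of 532 bp to the nearest transfer RNA gene. Of the 97, 73 overlapped a single gene, 16 overlapped 2, 6 overlapped 3 and 2 overlapped 4. The 24 regions with 2 or more took in 58 transfer RNA genes. Of the 131 overlapped genes, 98 (74.8%, 66.5 to 82.0%) lay wholly inside a region and 33 straddled a region's edge. Among 53 regions that overlapped 1 transfer RNA gene and had no coding gene end within 1 kb, the middle of the region lay a median of 189.5 bp from the middle of the gene, and in 12 of them within 100 bp. These regions reached a median of 99.0 bp past the gene on the shorter side and 555 bp on the longer side. Without strand in the table, the longer side could not be assigned to the upstream or downstream flank.

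Regions over transfer RNA genes were wider than most in the list. The 97 had a median width of 875 bp (quartiles 609 and 1203 bp), and 44.3% of them (34.2 to 54.8%) were 1 kb or wider. The 63154 other regions of these chromosomes had a median of 292 bp, with 6.17% at 1 kb or wider. Regions near coding gene ends are wider than others throughout the list, so the classes were split on this. Of the 97, 71 had no coding end within 1 kb and a median width of 815 bp (95% order-statistic interval 699 to 1014 bp), beside 261 bp (260 to 263 bp) for the 51658 other regions without a coding end. Regions at coding ends had a median of 1122.5 bp over 26 that overlapped a transfer RNA gene (832 to 1318 bp) and 713 bp (706 to 723 bp) over 11496 that did not. The regions in the flanks alone without a coding end, 35 in number, had a median of 297 bp (237 to 337 bp). The median width was larger where more genes were taken in: 796 bp with 1 transfer RNA gene, 1093 bp with 2 and 1340 bp with 3 or more. Width and overlap are linked by construction, since a wider region reaches more positions, and the part of this in the difference was not tested.

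**Figure D2:**
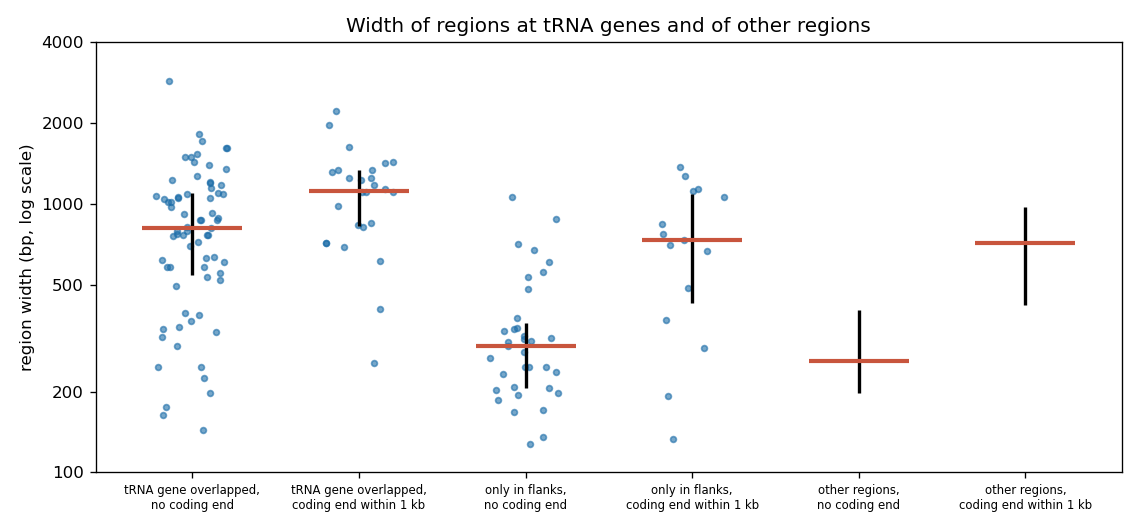
Width of regions (vertical axis, bp, log scale) by class; points are single regions at transfer RNA genes, black bars span the quartiles and red lines mark the median. Regions over a transfer RNA gene without a coding end have a median of 815 bp, those only in flanks 297 bp and other regions 261 bp; the last 2 classes are drawn without points.

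The 10 widest regions at transfer RNA genes ranged from 1501 to 2872 bp, and 2 of the 10 took in a coding gene end. The widest, chr14:51062892-51065763, was the 3rd widest region of chromosomes 1 to 19 and covered n-TLaag8 (leucine), n-TPagg4 (proline) and n-TTtgt3 (threonine). It lay 4548 bp from the olfactory receptor gene Olfr750. The next, 2221 bp over n-TRcct1 (arginine) on chromosome 6, held an end of Fmc1, and the 1972 bp region over n-TYgta9 (tyrosine) and n-TAagc15 (alanine) on chromosome 5 an end of Agbl5. Others stood far from coding genes: a region of 1613 bp over n-TEttc7 (glutamate) on chromosome 7 lay 256159 bp from the nearest coding end, at Atp10a, and one of 1542 bp over n-TFgaa5 (phenylalanine) on chromosome 14 lay 21528 bp from Tgds. The rest of the 10 covered n-TLtag1 (1821 bp), n-TEctc10 with n-TLcaa3 (1717 bp), n-TSaga9 (1633 bp), n-TQctg2 (1621 bp) and the 4 genes n-TLcag9 (in part), n-TDgtc5, n-TGtcc3 and n-TEctc6 (1501 bp). Of the 1000 widest regions on these chromosomes, 17 were at transfer RNA genes.

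Regions that took in 3 or more transfer RNA genes numbered 8. Besides the widest on chromosome 14 and the 1501 bp region on chromosome 1, one of 1431 bp on chromosome 3 (chr3:19627907-19629337) covered n-TRacg3, n-TYgta1, n-TYgta2 and n-TAagc14. One of 1428 bp on chromosome 1 covered n-TEctc5, n-TGtcc1 and n-TDgtc3. On chromosome 11, 3 such regions covered n-TPtgg4, n-TVaac7 and n-TLaag6 (974 bp), n-TPcgg3, n-TDgtc9 and n-TGtcc6 (1193 bp), and n-TRcct5, n-TRcct3 and n-TRtcg4 at the mitochondrial ribosome gene Mrpl58 (1252 bp). The last, 875 bp on chromosome 19, covered n-TVtac1, n-TVtac2 and part of n-TRtct1. All of these groups but the one at Mrpl58 mix amino acids. Within them, n-TLcag9, n-TDgtc3 and n-TLaag6 also lay only partly under their region.

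Of the 147 regions at transfer RNA genes, 106 (72.1%, 64.1 to 79.2%) had no coding gene end within 1 kb. Among the 63154 other regions of these chromosomes this share was higher, 81.8% (81.5 to 82.1%); the difference was not tested. The share was 73.2% of the 97 that overlapped a transfer RNA gene and 70.0% of the 50 in flanks alone. The 26 regions that did overlap a transfer RNA gene near a coding end were each nearest to a different coding gene. Chosen as examples after their values were seen, these included Prmt5, an arginine methyltransferase gene, with n-TRacg6 under a region of 846 bp, and Ndufs7, a gene of mitochondrial complex I, with n-TFgaa3 and n-TNgtt7 under 1172 bp. Elf1, which encodes an ETS transcription factor, had an end in a region of 1252 bp with n-TEttc4, and Psma3, a proteasome subunit gene, lay 54 bp from a region of 1105 bp over n-TKctt17. At these sites a region at the transfer RNA gene and one at the coding gene cannot be told apart.

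All 20 amino acids had at least 1 overlapped gene, as did 43 of the 48 anticodons. The 5 anticodons with 0 overlapped genes were His-ATG, Ile-TAT and Ser-GGA, with 1 gene each, Lys-TTT with 2 and Ser-CGA with 3. Both n-TKttt genes, 2270 and 23380 bp from a region, and the single His-ATG, Ile-TAT and Ser-GGA genes, 4864, 12378 and 6868 bp from one, had none within 2 kb. Of the Ser-CGA genes, n-TScga1 lay 1191 bp from a region, n-TScga3 6642 bp from one, and n-TScga2 96 bp from a region of 736 bp at Smarcc2, a chromatin remodeller gene. Both anticodons with every gene overlapped were small: Val-TAC with 2 genes under the same region on chromosome 19, and Gly-ACC with 1, whose gene n-TGacc1 was reached by the edge of a region of 224 bp. By amino acid, arginine had the highest share, 14 of 23 (60.9%, 38.5 to 80.3%), followed by proline with 9 of 16 (56.2%, 29.9 to 80.2%); these intervals overlap, as do those of most amino acids.

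**Figure D3:**
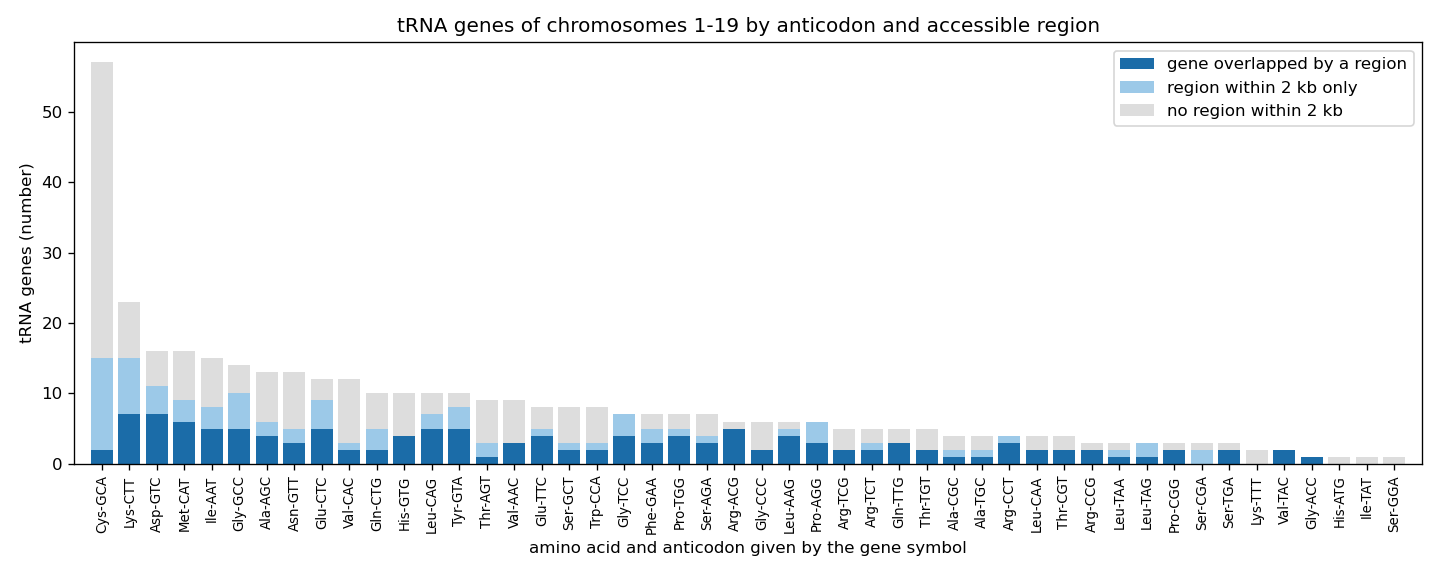
Number of transfer RNA genes on chromosomes 1 to 19 by amino acid and anticodon (horizontal axis), split into genes overlapped by a region, genes with a region within 2 kb only, and genes without one (stacked bars, vertical axis). The cysteine GCA bar holds 57 genes, 2 of them overlapped.

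Among the 31 anticodons with 5 or more genes, the highest shares were those of Arg-ACG, Leu-AAG and Gln-TTG. Of the 6 Arg-ACG genes, 5 (83.3%, 35.9 to 99.6%) were overlapped, by regions of 176 bp (n-TRacg1), 1420 bp (n-TRacg2), 1431 bp (n-TRacg3), 1269 bp (n-TRacg5) and 846 bp (n-TRacg6). The exception, n-TRacg4 on chromosome 13, lay 11404 bp from the nearest region. Of the 6 Leu-AAG genes 4 were overlapped (66.7%), or 4 of 5 without Trnal-aag, which the table places below 3 Mb. Without the genes placed below 3 Mb, Pro-TGG stood at 4 of 6 (66.7%), above Gln-TTG. Of the 5 Gln-TTG genes 3 were (60.0%), n-TQttg4 and n-TQttg5 by the same region of 582 bp. The lowest shares were those of Cys-GCA, Thr-AGT and Val-CAC. Of 9 Thr-AGT genes 1 was overlapped (11.1%, 0.281 to 48.2%), n-TTagt9, and of 12 Val-CAC genes 2 (16.7%, 2.09 to 48.4%), n-TVcac6 and n-TVcac9. With 5 to 12 genes an anticodon, the intervals of most of these families overlap.

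The 5 Arg-TCT genes, whose product reads the AGA codon, ranged from covered to far from any region. n-TRtct2 on chromosome 3 lay wholly under a region of 796 bp and n-TRtct1 on chromosome 19 partly under one of 875 bp. n-TRtct4 on chromosome 11 lay 272 bp from a region of 192 bp. n-TRtct3 on chromosome 13 lay 17652 bp from one, and n-TRtct5 on chromosome 1, known from work on mouse brain, 18890 bp. Of the 16 Met-CAT genes, whose symbols do not separate initiator from elongator methionine, 6 were overlapped: n-TMcat8, n-TMcat11, n-TMcat14, n-TMcat15, n-TMcat16 and n-TMcat17, by regions of 1497, 715, 627, 334, 1093 and 691 bp. A further 3 had a region within 2 kb (n-TMcat6 at 142 bp, n-TMcat7 at 389 bp and n-TMcat9 at 72 bp), and 7 had none. No selenocysteine gene was matched by symbol.

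The cysteine genes had the lowest share of the anticodons with 5 or more genes. Of 57 Cys-GCA genes, 2 were overlapped (3.51%, 0.428 to 12.1%): n-TCgca54 and n-TCgca55 on chromosome 11, both under a region of 1343 bp near Arl5c. Of the 57, 49 lay within 385 kb of chromosome 6 (47978997 to 48363603), and 0 of these were overlapped. In this stretch the list held 14 regions with a median width of 219.5 bp. Of these, 6 lay within 2 kb of a cysteine gene and were 168 to 321 bp wide. Of the 49 genes, 10 had such a region within 2 kb. The median number of other regions within 50 kb of these 49 genes was 0 (0 to 5), beside 4.0 for overlapped and 2.0 for all not overlapped transfer RNA genes. Without the 57 cysteine genes, 129 of 334 transfer RNA genes (38.6%, 33.4 to 44.1%) were overlapped. These genes are near-identical copies. The sources used here do not say how reads that match several copies were treated, and the part of this in the low share was not tested.

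Joined where neighbours lay 10 kb or less apart, the 391 genes formed 163 clusters: 101 single genes and 62 clusters of 2 or more with 290 genes. At least 1 gene was overlapped in 77 clusters (47.2%). Of the 62 clusters with 2 or more genes, every gene was overlapped in 15, some in 20 and none in 27. Genes in clusters of 5 or more were overlapped in 47 of 189 cases (24.9%, 18.9 to 31.7%), and genes alone in 42 of 101 (41.6%, 31.9 to 51.8%). Within 2 kb the corresponding shares were 51.9% and 53.5%. The 189 genes in clusters of 5 or more include the chromosome 6 clusters of 22, 10 and 9 cysteine genes. In these 0 genes were overlapped, and the share without them was not computed. Of the 78 genes with a region in the flank alone, 51 lay in clusters of 5 or more, 18 had the region within 200 bp, and 8 had regions on both sides.

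**Figure D4:**
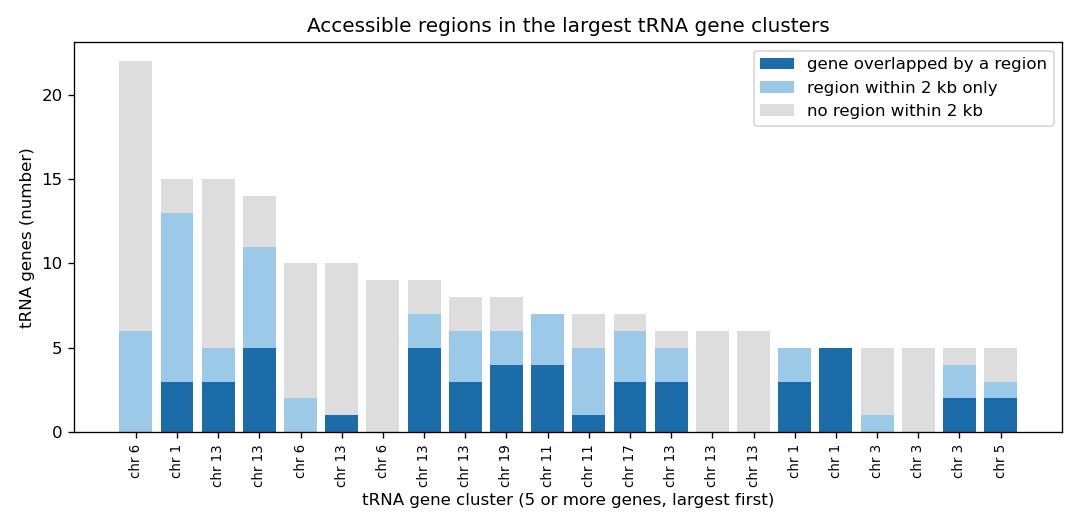
The 22 transfer RNA gene clusters with 5 or more genes (horizontal axis, labelled by chromosome, largest first) and the number of genes in each (vertical axis), split by accessible region. In 7 of the 22 clusters 0 genes were overlapped, and in 1 every gene was.

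The 5 largest clusters held 10 to 22 genes, with a tie at 10. The largest, 22 cysteine genes on chromosome 6 (48244316 to 48317586), had 0 overlapped and 6 with a region within 2 kb. On chromosome 13, home of a large histone gene cluster, a cluster of 15 genes for 8 anticodons (21907111 to 21940995) had 3 overlapped and 5 within 2 kb. Another of 14 genes for 10 anticodons (23425646 to 23453514) had 5 overlapped and 11 within 2 kb. A cluster of 10 cysteine genes on chromosome 6 (48332840 to 48363603) had 0 and 2, and one of the same size on chromosome 13 (21234045 to 21279768) had 1 and 1. Of the clusters with 5 or more genes and 0 overlapped, the largest after these was that of 9 cysteine genes on chromosome 6 (48133937 to 48164172), with no region within 2 kb of any.

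The cluster of 15 genes on chromosome 1 (171064164 to 171081946) is an array of 3 copies of the same 5 genes, in the order Glu-CTC, Gly-TCC, Asp-GTC, Leu-CAG and Gly-GCC. In the first copy a region of 1428 bp covered the first 3 genes, the last of these in part. In copies 2 and 3 no gene was overlapped. A region of 535 bp ended 597 bp before n-TEctc8, the first gene of copy 2, and a region of 710 bp ended 593 bp before n-TEctc7, the first gene of copy 3. Another region, of 246 bp, lay 112 bp after n-TGgcc13, the last gene of copy 2. The last gene of copy 3, n-TGgcc14, lay 3063 bp from its nearest region. The Gly-TCC, Asp-GTC and Leu-CAG genes began 542, 1201 and 1827 bp after the Glu-CTC gene in both of these copies, and 535, 1194 and 1820 bp after it in the first. The Gly-GCC gene began 2467, 2510 and 2470 bp after it in copies 1, 2 and 3. The next cluster along the chromosome, with 5 genes (171101838 to 171111515), had all 5 overlapped, 4 by the 1501 bp region and n-TVcac6 by one of 580 bp. The placement of reads from such copies is not stated in these sources, and its part in the contrast between copies was not tested.

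By chromosome, the share ranged from 3.77 to 80%. Chromosome 13 had the most transfer RNA genes (105) and the most regions at them (27), with 24 genes overlapped (22.9%, 15.2 to 32.1%). Chromosomes 15 and 16 had the fewest regions, 1 each, for 4 and 2 genes. Chromosome 6 had 2 of 53 overlapped (3.77%, 0.460 to 13%): n-TRcct1 and n-TGccc4, a glycine gene at Tia1. The highest shares among chromosomes with 10 or more genes were 80% of 10 on chromosome 7 (44.4 to 97.5%), 75% of 12 on chromosome 14 and 72.7% of 11 on chromosome 10. Of 30 transfer RNA genes within 50 kb of a histone gene, 8 were overlapped (26.7%, 12.3 to 45.9%), beside 34.1% of the other 361 (29.2 to 39.2%).

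**Figure D5:**
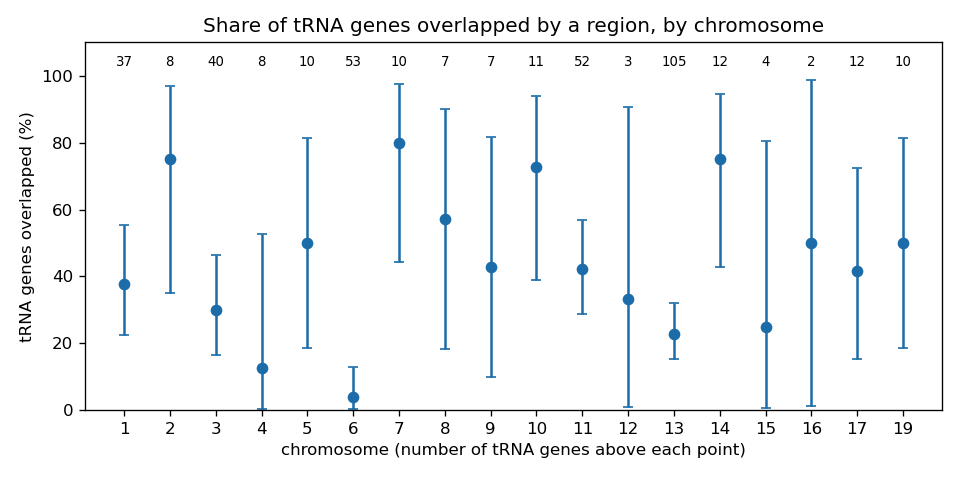
Share of transfer RNA genes overlapped by a region (vertical axis, percent) by chromosome (horizontal axis); bars are 95% exact binomial intervals and the number of genes stands above each point. Chromosomes 6 and 13, with 53 and 105 genes, sit at 3.77% and 22.9%, below the 33.5% of all 391.

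The rule has a limit of 2 kb. The 5 regions just inside it lay 1320 to 1966 bp from the nearest transfer RNA gene, and were 128 to 313 bp wide. The 5 just outside lay 2120 to 2334 bp away and were 182 to 718 bp wide. A region on either side of the limit lay at n-TKctt24 on chromosome 7, at 1726 and 2224 bp.

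Other genes that RNA polymerase III transcribes were split in the same list. All 10 single genes for which the table had an entry were overlapped by a region: Rn7sk (7SK RNA, which holds the elongation factor P-TEFb inactive), Rpph1 (the RNA of ribonuclease P, which trims the 5' end of transfer RNAs), Rmrp, the Y RNA genes Rny1 and Rny3, the vault RNA gene Vaultrc5, Rn7s1 and Rn7s2 (signal recognition particle RNA), Rnu6 (U6 spliceosomal RNA) and Bc1, a brain RNA that descends from an alanine transfer RNA. Their regions were 256 bp (Rnu6) to 1747 bp (Rn7sk) wide, with a median of 1041.5 bp. Of 51 genes of 5S ribosomal RNA, 0 were overlapped, an upper interval bound of 6.98%, and neither were 18 genes of that series listed as pseudogenes. Of the 51, 40 lay in the array on chromosome 8 (123538784 to 123622046), where 13 had a region within 2 kb and the closest region was 282 bp away. These copies are near-identical too, and the placement of reads from them was not tested.

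The protein-coding genes that make and charge transfer RNAs nearly all had a region at a gene end, 67 of 69 (97.1%, 89.9 to 99.6%) beside 52.6% of all protein-coding genes. All 13 polymerase III subunit genes, all 6 of TFIIIC, all 4 of TFIIIB, all 5 of the SNAPc complex, which serves genes such as Rn7sk and Rnu6, and both Maf1, the polymerase III repressor, and Ssb, which binds new polymerase III transcripts, had one. Of 19 processing genes 18 had one; the exception was Rpp40, a ribonuclease P subunit gene, with a region of 958 bp inside the gene. Of 20 cytosolic aminoacyl-tRNA synthetase genes, whose enzymes attach amino acids, 19 had one; the exception was Eprs, with a region of 984 bp inside the gene. These lists were not compared with genes of like expression.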

How the data were processed

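ATAC-seq libraries from naive CD4 T cells of wild-type (2 libraries) and DDX55 KO mice (2 libraries) were joined by the authors into 1 deposited list of regions with no header; its columns other than the sequence name hold a start and an end in bp, and no count or score. Build mm10, MACS3 3.0.0b1, SAMtools 1.15.1, Bowtie2 and fastp 0.12.4 are listed in the submitters' processing notes. Not given in the sources used here: their settings, the peak threshold, the handling of reads with several matches and of the transposase offset, and the way of joining. The depth per library is unknown.

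Starts were converted to 1-based positions. Genes came from the RefSeq table of GRCm38.p6, without strand, and promoter windows from the RefSeq promoter table, matched by position. A region was assigned to a transfer RNA gene when it overlapped the gene or 2 kb either side by at least 1 bp. Gene lists, windows and alternatives are descriptions with exact binomial intervals; no test was run, since the list has no value per library. Regions and genes named follow a rule: the 10 widest regions, those over 3 or more transfer RNA genes, the 5 largest clusters, clusters of 5 or more with 0 overlapped, extreme chromosomes and anticodons, anticodons of 1 or 2 genes, Arg-TCT and Met-CAT, and regions nearest the 2 kb limit. The members and lists were chosen with earlier results of these data known. A marker gene of the list is not reported here. The overlap code was tested on simulated data. Python 3.11.15, numpy 2.4.6, pandas 2.3.3, scipy 1.17.1 and matplotlib 3.10.9 were used.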

Additional observations from a re-analysis of the deposited data

How the results depend on the processing

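Of 47 alternatives over 8 results, 33 stayed within the interval of the reported share or median, or within 1.5 times of the count. The share of transfer RNA genes with a region moved from 53.5% at 2 kb to 33.5% with the gene alone, 42.5% at 500 bp, 46.8% at 1 kb and 65.7% at 5 kb. With the gene alone, 97 regions with a median width of 875 bp remained of 147 with a median of 723 bp. The share of genes overlapped, 33.5%, was 25.1% where the whole gene had to lie inside the region, 7.93% where the middle of the region had to lie within 100 bp of the gene, 28.5% without genes that have a coding end within 2 kb, 39.3% with 1 gene per cluster and, in 1 of 4 alternatives chosen after seeing the data, 38.6% without cysteine genes. The share of regions without a coding end was 72.1% at 1 kb, 81.0% at 0 bp and 53.1% at 5 kb. Of the 79 other polymerase III entries, 5S copies and 18 listed as pseudogenes included, 12.7% were overlapped and 31.6% had a region within 2 kb. The share of machinery genes stayed between 94.2 and 98.6%. No paired analysis was possible because the list holds no value per library, and for the same reason no library could be left out.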

Other observations

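Transfer RNA genes of chromosome X entered an alternative count, but none of the comparisons in the report. Of the 17 on chromosome X, 1 was overlapped by a region (5.88%, 0.149 to 28.7%) and the same number had a region within 2 kb. By the first base of the anticodon, which pairs with the last base of the codon, 39.7% of 73 genes with A were overlapped (28.5 to 51.9%), 35.2% of 122 with C (26.8 to 44.4%), 36.7% of 79 with G once the cysteine genes were left out (26.1 to 48.3%) and 46.7% of 60 with T (33.7 to 60.0%). Genes longer than 80 bp, which include serine and leucine genes and those with an intron, were overlapped in 29 of 65 cases (44.6%, 32.3 to 57.5%), and shorter ones in 102 of 326 (31.3%, 26.3 to 36.6%); 57 of the shorter genes are cysteine copies.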
